A study of Homo sapiens with 6 samples.

Results

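The genes described here are neighbours on the long arm of human chromosome 13, bands 13q12 to 13q14, measured in HT29, an established line of colorectal adenocarcinoma cells. They were picked by name from 59 symbols, and the probe set with the highest mean over all arrays stood for each gene. Of the 59, 56 had a probe set that the platform annotation ties to exactly 1 symbol, out of 18417 genes so named, and 51 of the 56 had a mean level above the filter of log2 5.5 that 13812 genes passed. CENPJ was found under its current symbol, CPAP. CDK8 and HMGB1 had only probe sets with several symbols and BRCA2 was not analysed here. The list was drawn up from the same laminin α1 against control comparison that is described below, so the differences of its members are given as descriptions, and nothing is read from how many of them passed a threshold.

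The arrays fall into 3 of HT29 cells with a laminin α1 expression construct and 3 of HT29 cells with a control construct, all grown for 7 days. Each group holds 3 culture passages, per the design text, so the spread shown is that between passages. The labels do not say how many cell clones stand behind each group or what the construct's promoter is. The arrays address what the laminin α1 chain does to these cells, and DNA copy number was not measured. In bulk RNA, fewer cells with a transcript and less of it per cell cannot be told apart.

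LAMA1, which encodes the laminin α1 chain, had log2 levels of 5.79, 5.72 and 5.71 in the laminin α1 arrays, against 5.71, 5.63 and 5.60 in the control arrays. It did not pass the limma test (difference 0.09, 95% interval -0.05 to 0.24, adjusted p = 0.535). Its level is close to the filter, and whether its probe set reads the construct's transcript was not tested. The groups are therefore taken from their labels alone. All 12 colon epithelial markers on the array passed the level filter, with EPCAM at log2 12.05. Their summed log2 levels were 120.8 to 121.4 in the laminin α1 arrays and 122.9 to 124.3 in the control arrays. Of these 12, 3 passed the limma threshold as lower, CDH17 at a difference of -1.65, KRT20 at -0.35 and LGALS4 at -0.31, and their part in the values below was not tested. Of the markers of other cell types, 5 of 7 fibroblast, 1 of 5 endothelial and 2 of 4 leukocyte genes passed the level filter and none passed the limma threshold. Their summed log2 levels were 39.0 to 39.6 in the laminin α1 arrays and 38.9 to 39.5 in the control arrays for fibroblasts, 26.4 to 26.7 in both groups for endothelium, and 21.4 to 21.7 in the laminin α1 arrays and 21.4 to 21.6 in the control arrays for leukocytes. Mean levels ran from log2 3.67 for DCN to 7.37 for COL1A1 among the fibroblast markers. They ran from 3.60 for PTPRC to 7.03 for CD14 among the leukocyte markers, and from 4.77 to 5.94 among the endothelial markers. DCN and PTPRC are near the bottom of the scale.

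The long arm of chromosome 13 is often gained as a block in colorectal cancers, and CDK8, a kinase of the Mediator complex that acts with β-catenin, is among its genes described as colorectal oncogenes. Other genes of these bands serve every cell. They encode subunits of the RNA exosome, the DNA clamp loader and RNA polymerases I and III, proteins that add or remove ubiquitin, and enzymes of glycosylation.

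The tested members were higher as a set in the laminin α1 arrays, with a median log2 difference (laminin α1 minus control) of 0.45, or 1.37-fold, against a median of -0.01 over all 13812 genes tested. Of 51 tested members, 48 had positive differences, where 6304 of all 13812 genes tested had. Of the 51, 33 passed the limma threshold (adjusted p under 0.05 over all genes) as higher and 0 as lower. Over all genes tested, 2.69% passed as higher, 2.59% as lower and 5.29% in either direction. In 39 of the 51, all 3 laminin α1 arrays lay above all 3 control arrays, which held for 10.1% of all genes tested. Since the list came from this contrast, these shares are no evidence about it. With control replicate 2 left out the count of 33 was 20, it was 22 when laminin α1 replicate 2 was dropped, and the same 20 genes passed whichever array was left out.

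**Figure D1:**
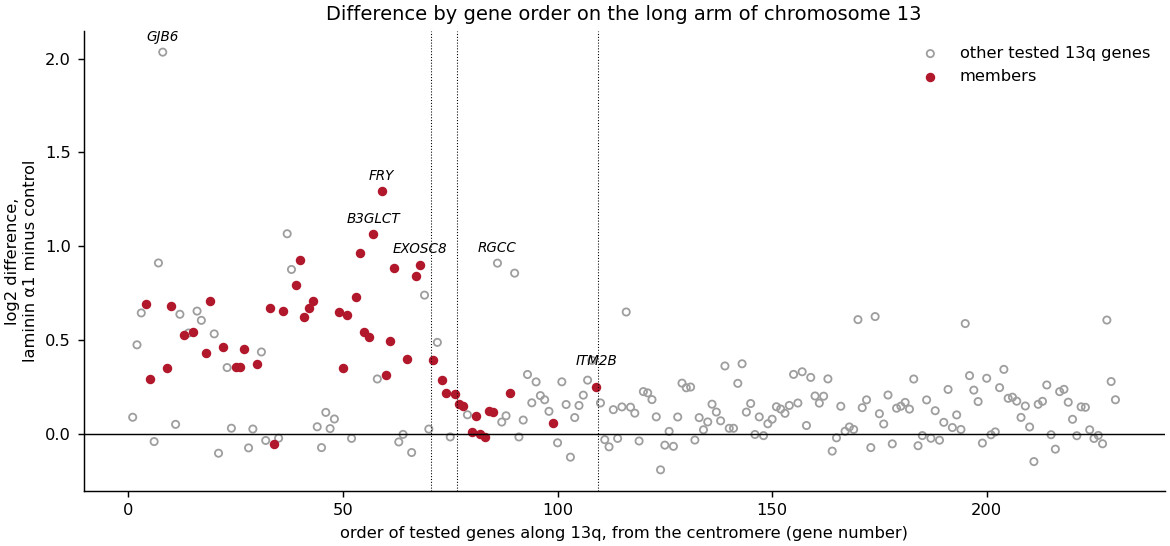
Log2 difference, laminin α1 minus control, of the 230 tested genes of 13q in gene order from the centromere, with the 51 tested members filled and the other genes open; dotted lines stand before UFM1, before FOXO1 and after ITM2B. Members up to EXOSC8 centre on a median of 0.63, and those from FOXO1 to ITM2B on 0.12.

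Among the members, which were chosen from this contrast, the size of the difference varied with place on the arm. In gene order, the 36 tested members from ZMYM5 to EXOSC8 had a median log2 difference of 0.63 (quartiles 0.42 to 0.71), or 1.55-fold. The 4 from UFM1 to COG6 had a median of 0.25 and a range of 0.21 to 0.39, and the 11 from FOXO1 to ITM2B a median of 0.12 and a range of -0.02 to 0.25. The borders between these stretches were set after the values had been seen. Of the members that passed the threshold, 31 lay in the first stretch, 2 in the second and 0 in the third. The other tested genes of these stretches did not show the same decline. Their medians were 0.05, 0.23 and 0.16 in that order, over 31, 2 and 22 genes.

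The shift was present in every laminin α1 array. Taken as the median over the first stretch of each member's level minus its control mean, it was 0.51, 0.60 and 0.74 in the laminin α1 arrays, against -0.08, -0.01 and 0.08 in the control arrays. The groups do not overlap, and laminin α1 replicate 3 is the highest. From UFM1 to COG6 the same measure was 0.20, 0.24 and 0.42 in the laminin α1 arrays, against -0.09, -0.01 and 0.09 in the control arrays. From FOXO1 to ITM2B it was 0.03, 0.06 and 0.14 in the laminin α1 arrays, against -0.02, -0.01 and -0.00 in the control arrays, so the gap is small there. Over all genes tested it ranged over the 6 arrays from -0.02 to 0.02, rounded to 2 decimals.

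**Figure D2:**
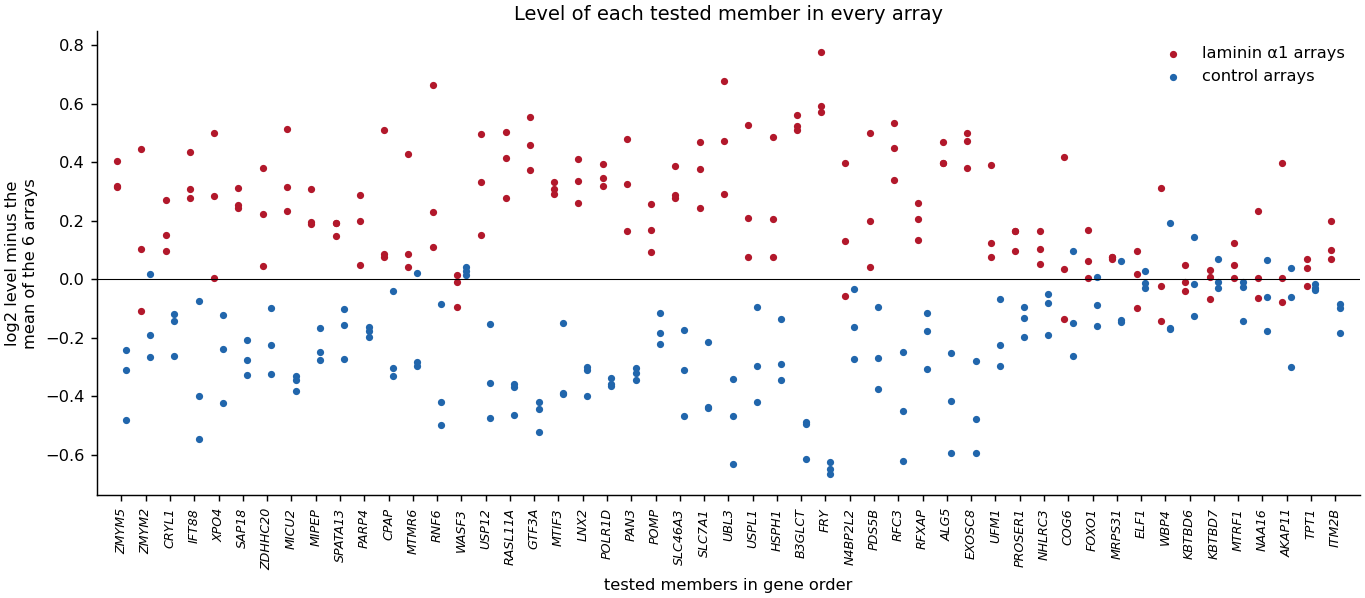
Log2 level of each of the 51 tested members in each of the 6 arrays, minus the gene's mean over the arrays, in gene order; laminin α1 arrays are drawn left of control arrays. The 2 groups stand apart for nearly all members up to EXOSC8 and overlap for 8 of the 11 from FOXO1 to ITM2B.

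Several members lie head to head with a neighbour and share a promoter region, so both genes of such a pair can be read beside the same sequence. Promoter windows of RefSeq (build GRCh38.p14, 250 bases before to 50 after the start) were found for 49 of the 56 members. The windows of LNX2 and POLR1D share 287 bases, those of PROSER1 and NHLRC3 share up to 279, and those of ELF1 and WBP4 share 222. One window of each pair is shown, 1 pair from each stretch, with that of FRY, the member with the largest difference. All are 5′ to 3′ on the plus strand, and capitals mark CCAAT and the GC box GGGCGG on either strand, searched separately, so that matches may overlap.

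POLR1D (shared with LNX2), chr13:27620493-27620792: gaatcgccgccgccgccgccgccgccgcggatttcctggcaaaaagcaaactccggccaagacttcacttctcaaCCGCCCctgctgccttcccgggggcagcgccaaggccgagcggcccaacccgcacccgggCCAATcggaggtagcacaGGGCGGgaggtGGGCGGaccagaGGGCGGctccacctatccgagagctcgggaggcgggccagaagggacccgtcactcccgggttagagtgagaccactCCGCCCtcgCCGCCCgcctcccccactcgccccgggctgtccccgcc
NHLRC3 (shared with PROSER1), chr13:39038061-39038360: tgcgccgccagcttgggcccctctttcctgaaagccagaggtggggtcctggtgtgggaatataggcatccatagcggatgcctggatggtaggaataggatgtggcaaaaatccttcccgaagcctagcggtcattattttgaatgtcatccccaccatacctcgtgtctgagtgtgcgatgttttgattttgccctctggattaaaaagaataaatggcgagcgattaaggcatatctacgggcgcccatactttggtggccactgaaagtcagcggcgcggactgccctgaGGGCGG
WBP4 (shared with ELF1), chr13:41061259-41061558: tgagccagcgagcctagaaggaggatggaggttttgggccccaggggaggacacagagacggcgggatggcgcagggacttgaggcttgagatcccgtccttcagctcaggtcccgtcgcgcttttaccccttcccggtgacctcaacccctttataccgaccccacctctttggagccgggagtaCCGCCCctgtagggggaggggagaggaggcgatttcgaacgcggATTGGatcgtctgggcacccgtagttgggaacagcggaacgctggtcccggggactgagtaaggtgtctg
FRY, chr13:32031524-32031823: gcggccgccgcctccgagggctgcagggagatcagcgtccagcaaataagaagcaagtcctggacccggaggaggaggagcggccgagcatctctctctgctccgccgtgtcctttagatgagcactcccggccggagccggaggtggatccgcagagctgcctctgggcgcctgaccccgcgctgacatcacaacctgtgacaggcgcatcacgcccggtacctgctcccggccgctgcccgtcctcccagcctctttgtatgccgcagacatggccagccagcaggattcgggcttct

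In each of these pairs both genes had close differences. The pairs were taken from stretches whose borders were set after the values had been seen, so nothing is read from the order of the pairs. Whether neighbours without a shared promoter region lie as close was not tested. The log2 difference was 0.67 for LNX2, a ubiquitin ligase that binds the Notch regulator Numb, and 0.71 for POLR1D, a subunit of RNA polymerases I and III. It was 0.28 for PROSER1 and 0.21 for NHLRC3, and 0.01 for ELF1, an ETS transcription factor, and 0.10 for WBP4, a spliceosome protein. The POLR1D window holds 6 GC boxes and 1 CCAAT, the NHLRC3 window 1 GC box, the WBP4 window 1 of each, and the FRY window neither. A GC box stands in 77.5% of the 40 windows of tested members from ZMYM5 to EXOSC8, in 83.3% of the 6 from UFM1 to COG6, in 58.3% of the 12 from FOXO1 to ITM2B, and in 64.3% of the 15460 windows of all genes tested. CCAAT stands in 37.5% of the windows of the first stretch, in 16.7% of those of the second, in 33.3% of those of the last and in 33.8% of those of all genes tested. GC content had a median of 69.2% in the windows of the first stretch, 52.3% from UFM1 to COG6, 62.8% from FOXO1 to ITM2B and 64.7% over all genes tested. A gene can have several windows, and those of the 3 stretches come from 31, 4 and 9 genes. ELF1 has further windows apart from the one shared with WBP4, with GC contents of 33.0% and 34.7% and no GC box. Neither the GC box share nor the GC content follows the order of the stretches. A match of letters is a description and shows no binding.

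Members that act on microtubules, cilia and actin are described gene by gene. For the counts by role that follow, 2.69% of all genes tested passed as higher, and the members were chosen from this contrast. The roles were not tested against each other. A role's median and count cannot be told apart from the places of its genes on the arm. FRY, a microtubule-binding protein needed for orderly mitosis, had log2 levels of 9.87, 9.88 and 10.07 in the laminin α1 arrays, against 8.67, 8.63 and 8.65 in the control arrays. The groups lie far apart, and the difference of 1.29 (SE 0.07), or 2.45-fold, is the largest among the members. RASL11A, a small Ras-like GTPase, had 8.97, 8.88 and 8.74 in the laminin α1 arrays, against 8.10, 8.0005 and 8.11 in the control arrays. These groups do not overlap either, at 0.79 (SE 0.08). IFT88, a subunit of the complex that carries cargo in cilia, differed by 0.68 and SPATA13 by 0.35. WASF3, which promotes actin branching, had a difference of -0.06, with 5.59, 5.70 and 5.67 in the laminin α1 arrays, against 5.72, 5.69 and 5.71 in the control arrays. Its level is close to the filter, and its groups overlap. KATNAL1, a microtubule-severing enzyme, and STARD13 lay below the filter, with differences of -0.21 for STARD13 and 0.29 for KATNAL1.

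Members of membranes, glycosylation and traffic had a median of 0.43, and 5 of 9 tested passed as higher. B3GLCT, which adds glucose to fucose on thrombospondin repeats, had 8.23, 8.22 and 8.27 in the laminin α1 arrays, against 7.10, 7.22 and 7.22 in the control arrays. The difference of 1.06 (SE 0.06), or 2.09-fold, is the second largest among members. ALG5, which makes the lipid-linked glucose donor of N-glycosylation, had 8.81, 8.80 and 8.87 in the laminin α1 arrays, against 7.81, 7.99 and 8.16 in the control arrays, and the groups lie far apart at 0.84 (SE 0.09). SLC7A1, a transporter of cationic amino acids, differed by 0.73, ZDHHC20, a protein palmitoyltransferase, by 0.43 and MTMR6, a lipid phosphatase, by 0.37. MTMR6 did not pass the limma threshold (adjusted p = 0.121). SLC46A3, a lysosomal transporter, averaged 6.10 ± 0.06 in the laminin α1 arrays and 5.47 ± 0.15 in the control arrays (SD, n = 3 each), a difference of 0.63. Its control mean lies below the level filter, so it passed the filter only through the laminin α1 arrays, and its place among the 51 tested, the 33 called and the 5 of 9 rests on that. Farther along the arm, COG6, a Golgi tethering subunit, had a difference of 0.21, AKAP11, an anchor of protein kinase A, 0.22 and ITM2B, a membrane protein whose mutated forms cause familial dementias, 0.25. ATP8A2 and NBEA were below the filter, at -0.02 and -0.01.

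Ubiquitin, ubiquitin-like and protein folding genes had a median of 0.53, and 8 of 10 tested passed as higher. UBL3, a membrane-anchored ubiquitin-like protein, had 8.12, 8.30 and 8.51 in the laminin α1 arrays, against 7.20, 7.36 and 7.49 in the control arrays. The lowest laminin α1 array lies above the highest control array, and the difference was 0.96 (SE 0.11), or 1.95-fold. RNF6, a ubiquitin ligase, differed by 0.67, USP12, a deubiquitinase, by 0.65, USPL1, a SUMO protease, by 0.54, HSPH1, a chaperone of the HSP110 family, by 0.51 and POMP, which helps assemble the proteasome, by 0.35. KBTBD7 and KBTBD6, paired adaptors of the CUL3 ligase, showed no such gap. KBTBD7 had 8.03, 8.05 and 7.95 in the laminin α1 arrays, against 8.09, 7.99 and 8.01 in the control arrays. KBTBD6 averaged 7.91 ± 0.05 in the laminin α1 arrays and 7.91 ± 0.14 in the control arrays (SD, n = 3 each). Both lie in the last stretch, their groups overlap, and the 95% interval of the difference was -0.16 to 0.12 for KBTBD7 and -0.18 to 0.18 for KBTBD6. They are close relatives, so their probes may share signal.

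**Figure D3:**
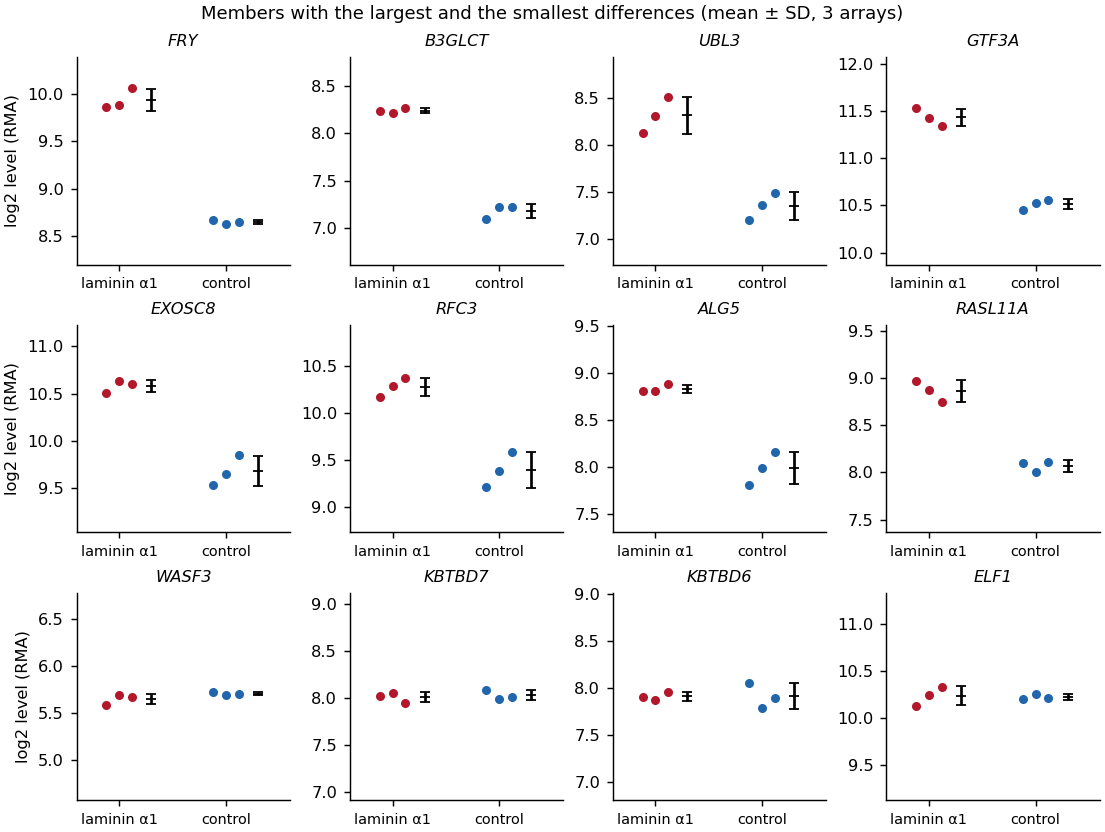
Log2 level in each array (points) with mean ± SD over 3 arrays for the 8 members with the largest positive differences, FRY to RASL11A, and the 4 with the smallest, WASF3 to ELF1; laminin α1 is left of control, and every panel spans the same 2.2 log2 units. The groups lie apart in the 8 and overlap in the 4.

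Members that act in transcription and chromatin had a median of 0.47, and 5 of 8 tested passed as higher. GTF3A, the factor that starts transcription of 5S ribosomal RNA, had 11.53, 11.43 and 11.35 in the laminin α1 arrays, against 10.45, 10.53 and 10.55 in the control arrays. The difference of 0.92 (SE 0.07), or 1.90-fold, is the fourth largest, and the groups stand apart. ZMYM5 and ZMYM2, related zinc finger proteins that sit side by side, had unlike differences, which were not tested against each other. ZMYM5 had 8.83, 8.83 and 8.92 in the laminin α1 arrays, against 8.03, 8.20 and 8.27 in the control arrays, while ZMYM2 had 10.26, 10.47 and 10.82 in the laminin α1 arrays, against 10.11, 10.18 and 10.39 in the control arrays. The groups are apart for ZMYM5, at 0.69 (SE 0.08), and overlap for ZMYM2, at 0.29 (SE 0.13). SAP18, of the Sin3 corepressor, differed by 0.54 and RFXAP, which is needed for transcription of MHC class II genes, by 0.40. FOXO1, a transcription factor held back by insulin signalling, had 9.75, 9.59 and 9.65 in the laminin α1 arrays, against 9.59, 9.50 and 9.42 in the control arrays, which overlap (0.16, SE 0.07). ELF1 had 10.13, 10.25 and 10.33 in the laminin α1 arrays, against 10.20, 10.26 and 10.22 in the control arrays. Its groups overlap as well, and its difference is the smallest positive one.

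All 4 tested genes of DNA replication, repair and chromosome segregation had positive differences (median 0.47, 3 past the threshold), as had all 4 of RNA processing and nuclear transport (median 0.58, 3 past it). RFC3, a subunit of the clamp loader that places PCNA on DNA, had 10.18, 10.29 and 10.37 in the laminin α1 arrays, against 9.21, 9.39 and 9.59 in the control arrays. EXOSC8, a ring subunit of the RNA exosome, had 10.51, 10.63 and 10.60 in the laminin α1 arrays, against 9.53, 9.65 and 9.85 in the control arrays. Neither pair of groups overlaps, at 0.88 (SE 0.10) for RFC3 and 0.90 (SE 0.09) for EXOSC8. PAN3, of the deadenylase that shortens poly(A) tails, differed by 0.65, XPO4, a nuclear export receptor, by 0.52, PDS5B, a regulator of cohesin, by 0.49, CENPJ (CPAP), needed to build centrioles, by 0.45 and PARP4, the poly(ADP-ribose) polymerase of vault particles, by 0.36. CENPJ did not pass the limma threshold (adjusted p = 0.0719).

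Mitochondrial members had a median of 0.46, and 3 of 5 tested passed as higher. MICU2, a gatekeeper of the calcium uniporter, differed by 0.71, MTIF3, a translation initiation factor, by 0.62 and MIPEP, a peptidase that trims imported proteins, by 0.46. In the last stretch MRPS31, a protein of the mitochondrial ribosome, had 0.15 and MTRF1, a release factor, 0.12. MTRF1 and NAA16 are next to each other in gene order, as are GTF3A and MTIF3, and whether the probe sets of such neighbours share signal was not tested. NAA16, a subunit of a protein N-terminal acetyltransferase, had 0.12. Of the 6 members with other or less described roles, 2 passed as higher, with a median of 0.25. N4BP2L2 had 10.15, 10.34 and 10.61 in the laminin α1 arrays, against 9.94, 10.05 and 10.18 in the control arrays, which overlap slightly (0.31, SE 0.11), and its neighbour N4BP2L1 was below the filter at 0.07. CRYL1, an enzyme of sugar metabolism, differed by 0.35.

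At the far end, TPT1, an abundant growth-related protein, had 10.22, 10.13 and 10.19 in the laminin α1 arrays, against 10.12, 10.11 and 10.14 in the control arrays. ITM2B had 11.42, 11.52 and 11.39 in the laminin α1 arrays, against 11.23, 11.22 and 11.13 in the control arrays. The groups overlap for TPT1 and stand apart by a small gap for ITM2B. A second probe set was present for 4 members. For USP12 it gave 0.62 beside 0.65, for TPT1 0.03 beside 0.05 and for N4BP2L1 0.11 beside 0.07. For UFM1, which is attached to other proteins like ubiquitin, the dim second probe set, at log2 5.08, gave -0.16 beside 0.39.

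In the first stretch the differences went with expression level. All 93 annotated genes from ZMYM5 up to UFM1 were looked at, whether members or not. Of 26 below a mean of log2 5.5, 5 of them members, 0 had a difference over 0.3 and the median was -0.01. Of 19 between 5.5 and 7, 5 were over 0.3, and the median was again close to 0. Between 7 and 9, 18 of 22 were over 0.3 with a median of 0.61, and above 9 it was 23 of 26 with a median of 0.54. Across the 93 genes Pearson's r of difference with level was 0.58, while across the 36 tested members it was 0.08. Genes share the arrays and are not independent replicates, so these are descriptions.

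**Figure D4:**
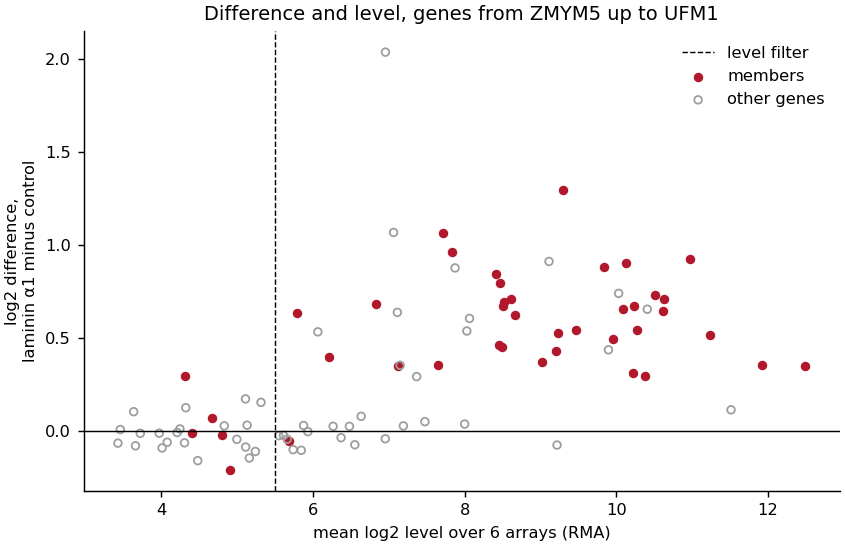
Log2 difference, laminin α1 minus control, against the mean log2 level over 6 arrays for the 93 annotated genes from ZMYM5 up to UFM1, members filled and others open; the dashed line is the level filter, near 5.5. Genes under the filter lie between -0.21 and 0.29, and most above log2 7 lie over 0.3.

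The list is not the whole neighbourhood. From ZMYM5 up to UFM1, 31 further genes were tested, of which 12 passed the threshold as higher and 0 as lower, beside 2.69% and 2.59% of all genes tested. The median difference of the 31 was 0.05. Of these 31, 12 had a difference over 0.3, at a median level of log2 7.95, and 18 lay within 0.2 of 0, at a median level of 6.42. The remaining gene, EEF1DP3, named after its value was seen, had 0.29. The largest was GJB6, a connexin, with 8.18, 7.88 and 7.85 in the laminin α1 arrays, against 6.05, 5.99 and 5.78 in the control arrays, a difference of 2.03. GJB2, the connexin beside it, had 0.91 and the small nucleolar RNA SNORD102 had 1.07. The smallest inside the whole span were SIAH3 at -0.13, TNFRSF19 and SMAD9 at -0.10 and PABPC3 at -0.08, the last at a level of log2 9.22. With all 106 tested genes from ZMYM5 to ITM2B, listed or not, the median was 0.29.

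The shift did not begin at the first listed gene nor wholly end at the last. PSPC1, a paraspeckle protein and the nearest tested gene on the centromere side of ZMYM5, had 10.07, 10.28 and 10.34 in the laminin α1 arrays, against 9.56, 9.57 and 9.62 in the control arrays (difference 0.64). The 5 tested genes that follow ITM2B had differences of 0.16 for RB1, the retinoblastoma tumour suppressor, -0.03 for LPAR6, -0.07 for RCBTB2, 0.13 for FNDC3A and -0.03 for MLNR, next to 0.25 for ITM2B itself. RGCC, a cell cycle regulator, had the largest difference of the last stretch at 0.91. EPSTI1, in the same stretch and named after its value was seen, had 0.86. The 22 tested genes from FOXO1 to ITM2B that are no members had a median of 0.16. Of these 22, 4 passed as higher, or 18.2%, beside 2.69% of all genes tested. All 121 tested genes beyond ITM2B had a median of 0.13, close to the 0.12 of the members from FOXO1 to ITM2B. Positive differences were held by 94 of them, and by 6304 of all 13812 genes tested. Of these 121, 11 passed the threshold as higher and 0 as lower, beside 2.69% and 2.59% of all genes tested.

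Across autosomes, chromosome 13 had the highest median difference, 0.16 over 230 tested genes, where the other 21 had medians from -0.05 to 0.04. It also had 63 genes past the threshold as higher, or 27.4%, where the others had 0.581% to 9.25%. This measure holds the members and is a description for that reason.

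**Figure D5:**
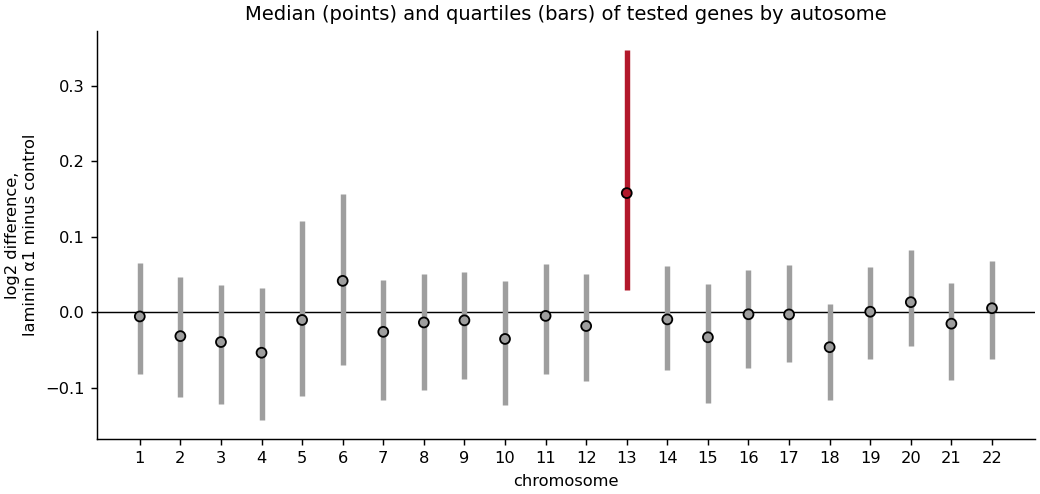
Median (points) and quartiles (bars) of the log2 difference, laminin α1 minus control, over the tested genes of each autosome, with chromosome 13 in red. Its median is 0.16, and the other medians lie between -0.05 and 0.04.

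Partners of the members that are encoded on other chromosomes centred near 0. These are subunits, direct partners or relatives of members, listed for 16 complexes such as the clamp loader, cohesin, the RNA exosome, the COG complex and the proteasome. For 3 partners of BRCA2 and 5 genes of the Mediator kinase module, the member itself, BRCA2 or CDK8, was not among those tested. Of 86 listed genes, 79 were on the array and off chromosome 13, and 77 were tested, with a median of -0.03. Of the 77, 31 were positive, where 6304 of all 13812 genes tested were. Past the threshold, 0 were higher and 1 lower, where 2.69% and 2.59% of all genes tested passed. The exception was MCUB, a subunit that dampens the calcium uniporter, at 7.00, 6.85 and 6.92 in the laminin α1 arrays, against 7.15, 7.32 and 7.37 in the control arrays (difference -0.36, SE 0.08, limma adjusted p = 0.0250). Its groups do not overlap, but the call was lost without laminin α1 replicate 2 (adjusted p = 0.129), control replicate 2 (adjusted p = 0.128) or control replicate 3 (adjusted p = 0.0937). The other clamp loader subunits had a median of -0.05 beside 0.88 for RFC3, and 9 other exosome genes had a median within 0.01 of 0 beside 0.90 for EXOSC8. Cohesin genes had a median of -0.16 beside 0.49 for PDS5B, genes of the COG complex -0.03 beside 0.21 for COG6, and proteasome genes 0.06 beside 0.35 for POMP.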

How the data were processed

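The deposited values are log2 expression levels per probe set from 6 single-channel arrays. The submitters' processing notes name RMA and version 1.1 of the Affymetrix Expression Console. Since RMA gives arrays the same distribution, a shift common to every gene would be hidden. The table holds 33297 probe sets, of which the annotation gave 1 symbol to 19460. Genes with a mean above the 25th percentile were tested.

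Differences are laminin α1 minus control from limma 3.58.1 in R 4.3.3, fitted over all 13812 tested genes without covariates, with Benjamini-Hochberg adjustment. The median SE of a difference was 0.08, and 3 arrays per group limit the precision. The fit was tested on simulated data. Gene order came from RefSeq (GRCh38.p14) and was used for order only. One gene placed before the long arm was left out of the 13q counts.

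The members and lists were chosen with earlier results of these data known. Named were the 8 largest and 4 smallest differences, 12 fixed members, 14 neighbours and partners past the threshold. Alternatives were other level filters, the mean of probe sets, median centring, repeated quantile normalization, a replicate block, and leaving out arrays singly. The summary of 1 group of members is not reported here.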

Additional observations from a re-analysis of the deposited data

Results flagged for a closer look

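Outside the comparisons above, the data hold 2 probe sets to which the annotation gives several symbols, among them the symbol of a member that had no probe set of its own. Because several genes are listed for each, neither is named here. When limma was fitted to the whole table of probe sets, 1 of the 2 differed between the groups, with log2 levels of 10.89, 10.88 and 10.95 in the laminin α1 arrays, against 10.02, 10.12 and 9.99 in the control arrays. The difference was 0.86 (SE 0.06, adjusted p = 0.000615), higher in 3 of 3 laminin α1 arrays. The other had 11.96, 12.02 and 12.09 in the laminin α1 arrays, against 11.63, 11.72 and 11.88 in the control arrays, and did not pass (difference 0.28, adjusted p = 0.190). Both were picked by the symbol of a listed member, and the list came from this contrast, so nothing is read from the count. The share of all probe sets that passed in that fit is not given here.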

How the results depend on the processing

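The median difference of the tested members was 0.40 with no filter and 0.45 to 0.46 with averaged probe sets, a 50th percentile filter, centred arrays, repeated quantile normalization or the replicate block, and 0.37 to 0.52 when each array was left out in turn. The number of members past the threshold was 30 to 39 under those 6 settings and 20 to 33 with an array left out, all higher. The median of 13q genes outside the members was 0.0698 with no filter and 0.168 with the filter at the 50th percentile, which test more and fewer dim genes, and 0.0976 to 0.137 with an array left out. The partners' median stayed between -0.04 and -0.01. Over all genes tested, 730 passed, against 405 to 1211 with an array left out, where the cause was not tested. Replicate numbers are shared by the groups, and the deviations of same-numbered arrays correlated at 0.39, 0.02 and 0.53. For laminin α1 replicates 1 and 3 the same-numbered control array correlated best. Laminin α1 replicate 2 correlated best with control replicate 1, at 0.16. These values do not settle whether the numbers pair the arrays, and the main fit left pairing out. With the replicate block, 1596 genes passed, 39 of them members. UFM1 had 0.12 with the mean of its probe sets. No named gene changed direction after being called. The bottom of the array scale limits what can be seen of dim genes.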
